A study of Catharus ustulatus with 19 samples.

Results

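The inland Swainson's thrushes (Catharus ustulatus) of this study were 9 of its 19 birds, chosen by their labels alone: 5 were labelled migratory and 4 non-migratory. All 9 were males that had lived in captivity for more than a year under constant conditions, apart from a day length that was set anew each week to follow the season outdoors. RNA was sequenced from a piece of brain that held the hypothalamus together with the optic chiasma. The other 10 birds, of the coastal ecotype (4 migratory, 6 non-migratory, 3 of them females), entered the estimate of the spread, the terms for date and hour where these were added, and the comparisons between ecotypes. The inland and coastal forms are populations of one species that are known to take different migration routes.

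Songbirds that migrate at night become restless in captivity in spring and autumn even when they cannot leave, and they fatten in the same weeks. The hypothalamus is the part of the brain that reads day length, keeps daily time and controls feeding, body temperature and hormone release, and the optic chiasma is the crossing of the optic nerves below it. The question of the comparison was which genes of this tissue differed between inland birds in the migratory state and inland birds outside it.

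The labels tied status closely to the date. The 4 non-migratory inland birds were collected in August 2011, replicate 1 on day 7 and replicates 2, 3 and 4 on day 8. Migratory inland replicates 2 and 3 were collected on 3 October and replicates 4 and 5 on 4 October. Migratory inland replicate 1 was collected on 7 August, with the non-migratory birds. August and October therefore separate the statuses in all of the 9 birds but that one, and every inland October bird was migratory. The hour of collection was spread alike in both groups: it was 7.65, 3.13, 3.97, 6.03 and 2.87 hours after lights on in migratory replicates 1 to 5, and 6.53, 5.07, 3.03 and 5.2 hours in non-migratory replicates 1 to 4. That is 4.73 ± 2.05 hours on average in the migratory group (SD, n = 5) and 4.96 ± 1.45 in the other (SD, n = 4).

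Values were given for 11727 protein-coding genes on a log scale, read as log2, so that a difference of 1 is a doubling. Each bird's column held nearly the same set of values, with a median of 28.05, so levels are relative to the rest of that bird's genes and carry no total. The depth of the libraries is unknown. The genes carry identifiers beginning with ENSFALG, which the sources used here pair with no names, so known genes of the clock, of thyroid hormone signalling or of appetite could not be picked out, and the tissue could not be checked against its markers. In a block of tissue, fewer cells of a type and less RNA per cell cannot be told apart.

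Inland birds of one status resembled each other about as much as birds of different status. As a measure of how far 2 birds lay apart, the SD of their difference was taken across all genes. Its median was 0.38 log2 (range 0.33 to 0.55) over the 16 pairs with the same status and 0.40 log2 (range 0.38 to 0.51) over the 20 pairs with different status. The 10 pairs of migratory birds were the more alike, with a median of 0.37 and a highest value of 0.40. The 6 pairs of non-migratory birds had a median of 0.45, and those above it were pairs with non-migratory replicate 1. That bird lay 0.49, 0.55 and 0.55 log2 from the other non-migratory birds, farther than from migratory replicate 1, with which it shared its day of collection (0.40), and migratory replicate 5 (0.43). From migratory replicates 2, 3 and 4 it lay 0.49, 0.51 and 0.47 log2, above the median of pairs with different status. It was thus far from most birds of both statuses. Non-migratory replicate 1 and migratory replicate 1 were also the inland birds collected latest after lights on (6.53 and 7.65 hours). The gene-by-gene SD within a group pointed to non-migratory replicate 1 as well. Its median over genes was 0.149 log2 in the 5 migratory birds, 0.174 in the 4 non-migratory birds, and 0.146 in the non-migratory birds without replicate 1.

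**Figure D1:**
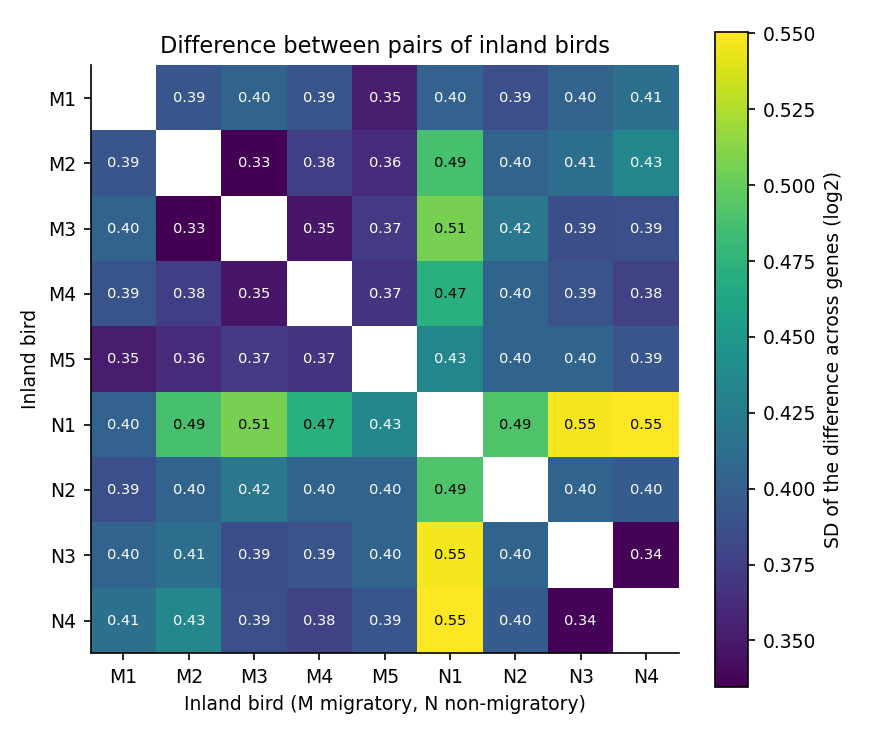
SD across 11727 genes of the difference between each pair of the 9 inland birds, in log2, as a colour and a number (M1 to M5 are the migratory replicates, N1 to N4 the non-migratory ones). The row and column of N1 hold the high values, up to 0.55, while all pairs of migratory birds lie at or under 0.40.

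A principal component analysis of the 9 birds separated one bird first and the months second. The first component held 28.5% of the variance. Non-migratory replicate 1 lay at 37.2 on it, migratory replicate 1 at 10.6, and the other birds between -18.6 and 4.9. The second component held 16% of the variance and ordered the birds by month: the October birds lay at 19.7, 17.6, 7.0 and 4.0, with the birds of 3 October above those of 4 October. All August birds lay below 0 on it, and the August migratory bird, at -7.6, lay among the non-migratory birds (-4.7, -14.2, -9.7 and -12.1). On this component the statuses overlapped through that bird alone, and the months did not overlap.

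**Figure D2:**
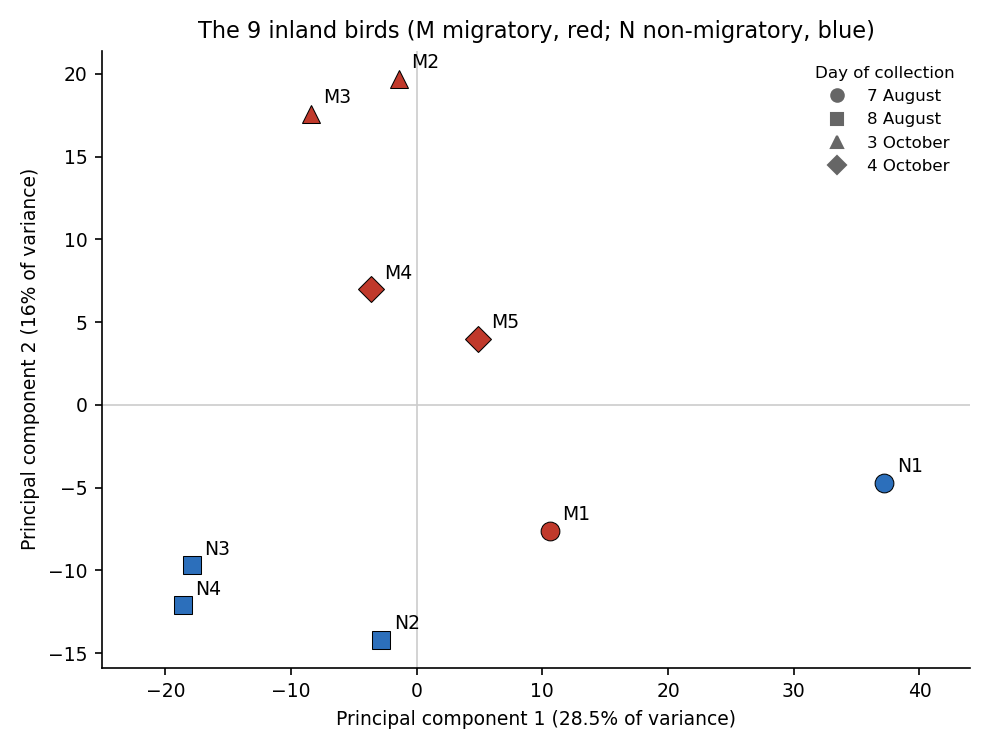
First and second principal components of the 9 inland birds, computed from values centred on each gene's mean (axes in units of the component scores). Colour gives the status and shape the day of collection; N1 stands apart on the first component at 37.2, and M1, the migratory bird of 7 August, lies below 0 on the second with the other August birds.

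Between the statuses, 1 gene of 11727 (0.00853%) passed the threshold, an adjusted p under 0.05 in limma's moderated test with a shared spread from all 19 birds. It was lower in migratory birds. In the test on the 9 inland birds alone no gene passed (limma, smallest adjusted p = 0.34), and the unadjusted p was under 0.05 in 680 genes (5.8%). With all birds, it was under 0.05 in 738 genes (6.29%), of which 325 were higher and 413 lower in migratory birds. A test in which no gene differs gives about 5% of genes, or 586. Without migratory replicate 1, the August bird, no gene passed (limma, smallest adjusted p = 0.063). The unadjusted p was then under 0.05 in 844 genes (7.2%), 360 of them higher and 484 lower in migratory birds.

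The gene that passed, ENSFALG00000005180, had log2 values of 28.75, 28.52, 28.99, 28.51 and 28.62 in migratory replicates 1 to 5. In non-migratory replicates 1 to 4 it had values of 29.36, 29.54, 29.27 and 29.52. Every migratory bird lay below every non-migratory bird, the nearest being migratory replicate 3 and non-migratory replicate 3. The difference, migratory minus non-migratory, was -0.74 ± 0.11 log2 (SE), or 1.67-fold, with a 95% interval from -0.97 to -0.51 and an adjusted p of 0.025 by limma. The August migratory bird differed by -0.67 log2 from the non-migratory mean and by -0.60 from the non-migratory bird of the same day; it was among the birds whose values chose the gene. Without it the difference was -0.76 ± 0.12 log2 (SE), with a limma adjusted p of 0.063. Leaving out each inland bird in turn kept the difference between -0.82 and -0.70 log2, but the call was kept only without migratory replicate 3 or without non-migratory replicate 1 or 3.

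The coastal means of this gene lay between the inland ones. Migratory coastal birds stood at 28.99 ± 0.09 log2 (SD, n = 4), and non-migratory coastal birds at 28.95 ± 0.24 (SD, n = 6). The inland averages were 28.68 ± 0.20 for migratory birds (SD, n = 5) against 29.42 ± 0.13 for the others (SD, n = 4). The status difference in coastal birds was 0.01 ± 0.10 log2 (SE). It was fitted with a term for sex, since 3 coastal birds were females, and so is not the plain difference of the coastal means. The coastal differences of the genes below were fitted in the same way. The inland difference minus the coastal one was -0.76 ± 0.15 log2 (SE), which had a limma adjusted p of 0.31 over all genes and did not pass.

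The gene next in order of p-value among those lower in migratory birds was ENSFALG00000004697. Its log2 values were 29.12, 29.08, 29.24, 29.40 and 29.12 in migratory replicates 1 to 5, and 29.61, 29.66, 29.61 and 29.59 in non-migratory replicates 1 to 4. The non-migratory birds were within 0.07 log2 of each other, and the groups did not overlap. The difference was -0.43 ± 0.08 log2 (SE; 95% interval -0.59 to -0.27) and did not pass (limma adjusted p = 0.16). In coastal birds it was 0.11 ± 0.07 log2 (SE), and the difference between the ecotypes was -0.54 ± 0.11 (SE, limma adjusted p = 0.31).

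No gene that was higher in migratory birds passed. The smallest p-value there was that of ENSFALG00000004698, with log2 values of 28.49, 28.61, 28.90, 28.51 and 28.50 in migratory replicates 1 to 5 and 28.07, 28.22, 28.44 and 28.13 in non-migratory replicates 1 to 4. The groups were separated by a narrow gap, between migratory replicate 1 and non-migratory replicate 3. The difference was 0.39 ± 0.09 log2 (SE; 95% interval 0.20 to 0.58; limma adjusted p = 0.55). ENSFALG00000007327, a gene of low level whose mean exceeded that of 6.98% of the genes, had values of 26.02, 26.04, 25.84, 26.04 and 25.69 in migratory and 25.50, 25.26, 24.77 and 25.47 in non-migratory birds. The groups did not overlap, and the non-migratory birds were the more spread (SD 0.34 against 0.16 log2). Its difference was 0.68 ± 0.17 log2 (SE; 95% interval 0.33 to 1.03; limma adjusted p = 0.56). For both genes the coastal difference was -0.06 log2 (SE 0.09 and 0.16).

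**Figure D3:**
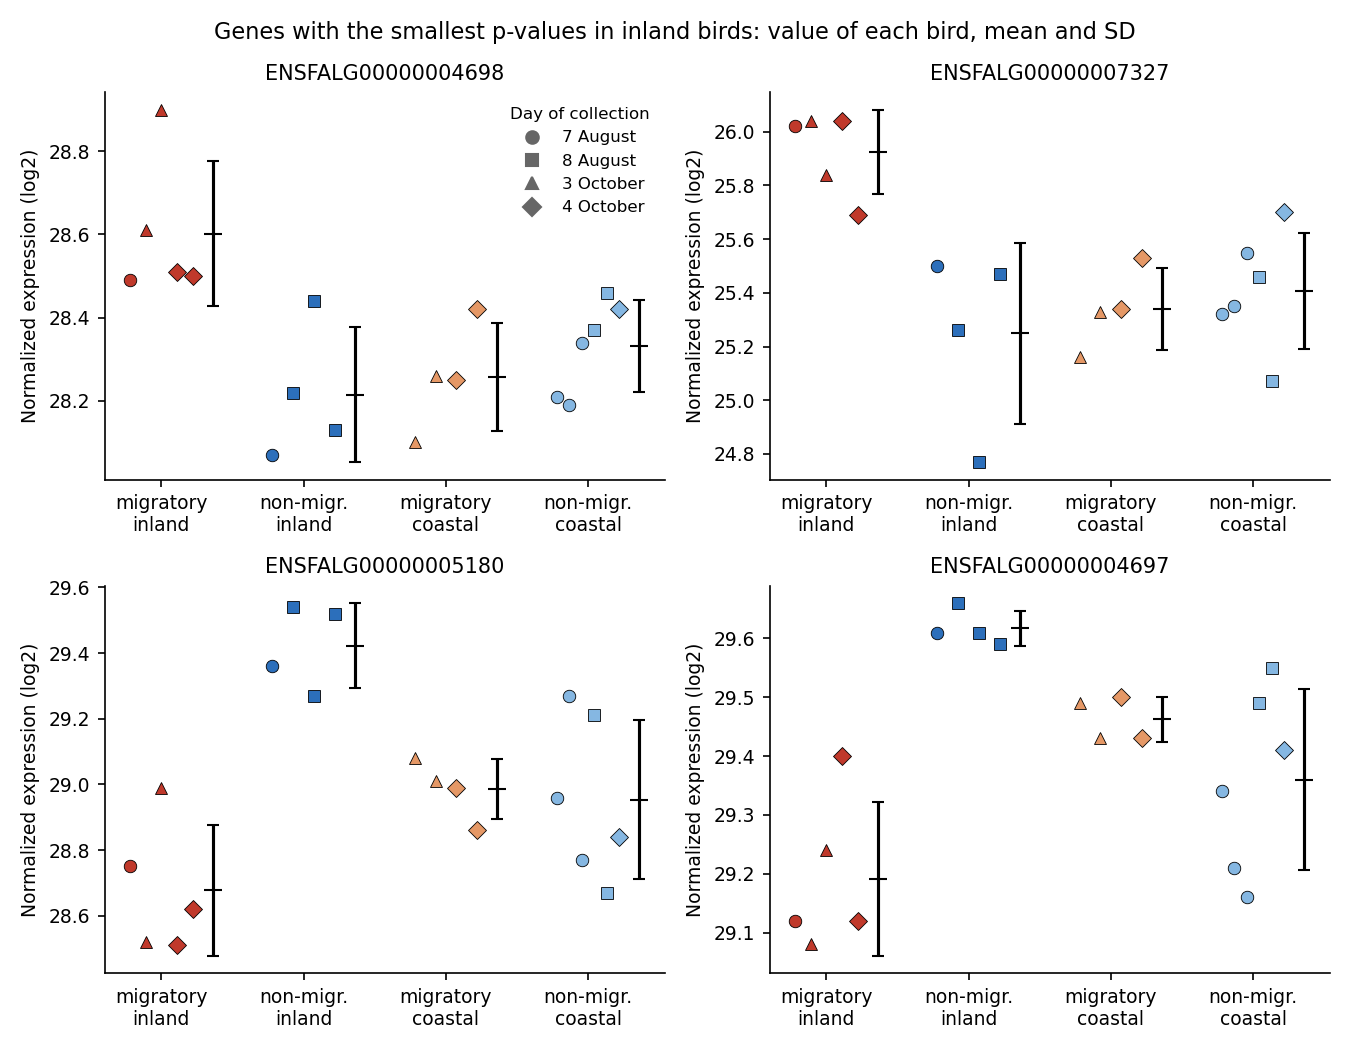
Normalized expression (log2) of 4 genes, the 2 with the smallest p-values in each direction, in every bird of the 4 groups; shape gives the day of collection, and the bar beside each group its mean and SD. In each gene the 5 migratory inland birds, M1 of 7 August included, lie on one side of the 4 non-migratory inland birds, and the coastal groups overlap.

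Over all genes, the typical status difference was 0.09 log2 in size (the median, 1.06-fold). It was 0.29 log2 (1.22-fold) among the 738 genes with an unadjusted p under 0.05. In 8660 genes (73.8%) the 95% interval of the difference stayed inside ± 0.5 log2, and in 11156 (95.1%) inside ± 1 log2, so for most genes a doubling or a halving was outside the interval. The precision depended on the level: the median SE was 0.178 log2 in the 3909 genes with the lowest means and 0.086 in the 3909 with the highest. The share with an unadjusted p under 0.05 was about the same at each level (6.09%, 6.42% and 6.37% from low to high). Among the lowest genes 147 of these were lower and 91 higher in migratory birds, and among the highest 123 were lower and 126 higher. The difference between these splits was not tested.

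A difference of more than 1 log2 was found in 45 genes (0.384%), 26 of them higher and 19 lower in migratory birds. These differences came with a wide spread between birds: the median SD of these genes was 0.84 log2 within the migratory and 1.44 within the non-migratory group. The statuses overlapped in all but 2 of the 45, and none passed the threshold (limma, smallest adjusted p = 0.58; 15 had an unadjusted p under 0.05). Of the 45, 35 were among the 3909 genes with the lowest means.

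In 188 genes (1.6%) all 5 migratory birds lay on one side of all 4 non-migratory birds, above them in 91 genes and below them in 97. This count is a description of these birds and carries no test. The birds can be split into groups of 5 and 4 in 126 ways. If status plays no part, each split is equally likely. Only the splits with the 5 highest or the 5 lowest birds set the groups apart. The 1.6% is about the share of those splits, so this count is near that which arises when no gene differs. The gap between the groups was narrow in most of them, with a median of 0.039 log2; it was over 0.1 log2 in 38 genes and reached 0.64 log2. Their median difference was 0.26 log2 (quartiles 0.18 and 0.43).

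The birds left out one at a time changed these counts unequally. Without non-migratory replicate 1, 10 genes passed (0.0853%; limma, smallest adjusted p = 0.0097), 8 higher and 2 lower in migratory birds, and the unadjusted p was under 0.05 in 1244 (10.6%). The 10 genes, which included ENSFALG00000005180, differed by 0.51 to 2.45 log2 in size. In 9 of the 10 the bird left out lay nearer to the migratory mean than to the mean of the other non-migratory birds, and in 5 it lay inside the migratory range. Without any other single inland bird, 0 or 1 genes passed (limma), with 564 to 844 at an unadjusted p under 0.05. The genes with no overlap went from 188 to 860 (7.33%) without non-migratory replicate 1, and to between 275 (2.35%) and 412 (3.51%) without any other. A gene that is apart in 9 birds is also apart in 8 of them, so this count cannot fall when a bird is left out. Fewer splits are possible with 8 birds (70 without a migratory bird, against 126 with all 9). A larger share of them sets the groups apart, so this count rises with a bird left out even when no gene differs. The counts with a bird left out were not compared with that share. The non-migratory birds that remain without replicate 1 are the 3 birds of 8 August, the only inland birds of that day. In those counts, status and the day of collection cannot be told apart.

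**Figure D4:**
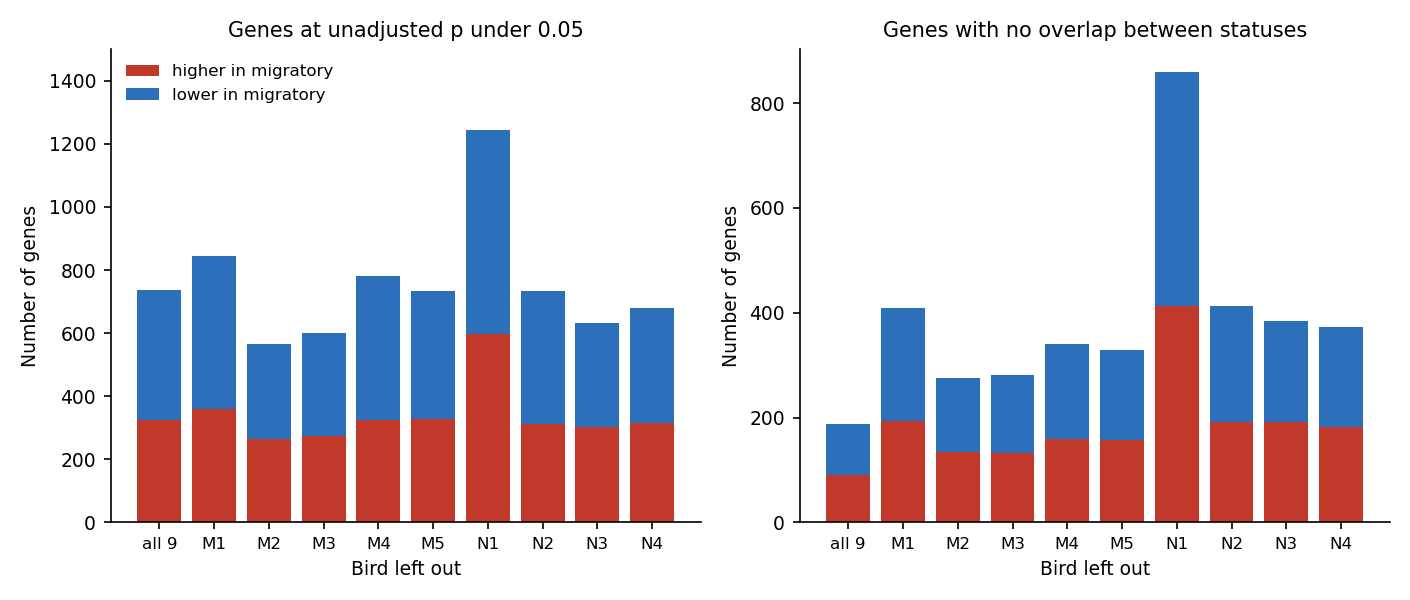
Number of genes at an unadjusted p under 0.05 (left) and with no overlap between the statuses (right), with all 9 inland birds and without each in turn, split into genes higher and lower in migratory birds. The count without N1 is the highest in both panels (1244 and 860 genes), against 738 and 188 with all 9.

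Each bird was then placed on genes chosen without it. For this, the other 8 inland birds were compared, the genes with an unadjusted p under 0.05 were taken, and the bird left out was set on a scale from 0, the mean of the other non-migratory birds, to 1, the mean of the other migratory birds. Non-migratory replicate 1 had a median position of 1.08 over 1275 genes, close to the migratory mean, and lay nearer to its own status in 267 of them (20.9%). It did so in 18.6% of the genes higher in migratory birds and 23.2% of those lower. This position is a median over the chosen genes. Over all genes the bird lay 0.49, 0.51 and 0.47 log2 from migratory replicates 2, 3 and 4, so the position does not make it alike to them. The status label of this bird could not be checked against the deposited values, and the part of labelling or handling in the counts with and without it was not tested. Non-migratory replicates 2, 3 and 4 lay near the middle, at 0.58, 0.46 and 0.48, and nearer to their own status in 45.5%, 52.8% and 50.7% of 576 to 618 genes. The migratory birds of 3 October lay toward their own status, at 0.92 and 0.77 (72.6% and 67.1% of genes nearer to it). Those of 4 October lay at 0.53 and 0.59 (51.9% and 55.8%). Migratory replicate 1 lay at 0.43 over 761 genes, and nearer to the migratory than to the non-migratory mean in 338 of them (44.4%). The groups left are of unlike sizes when a migratory or a non-migratory bird is left out. The position of a bird that belongs to neither status was not worked out, and the middle of the scale need not be that position.

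**Figure D5:**
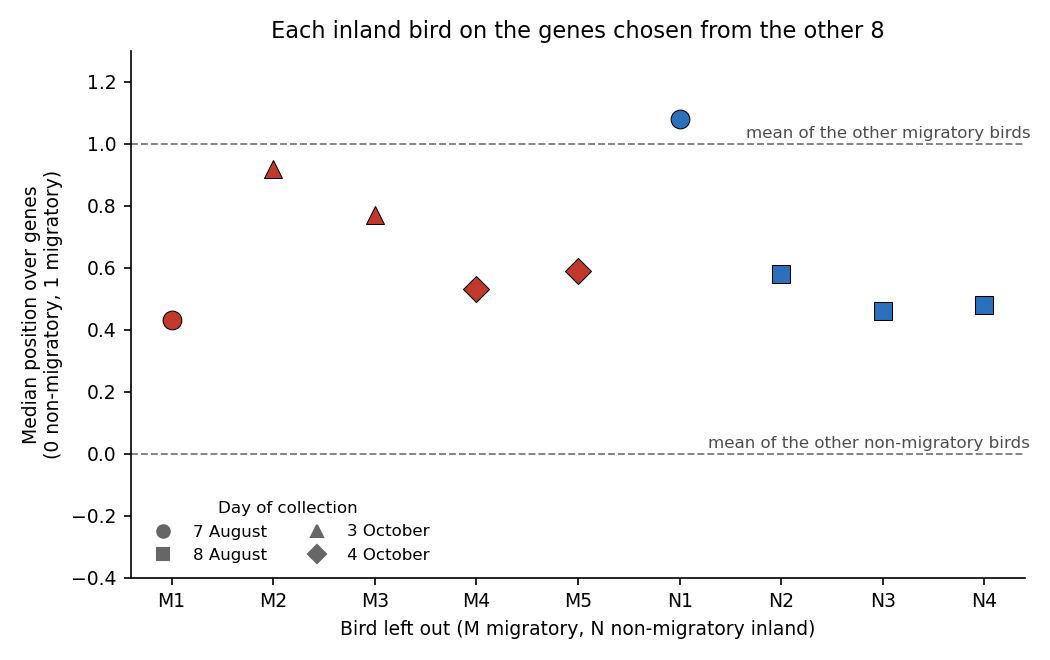
Median position of each inland bird over the genes with an unadjusted p under 0.05 among the other 8 birds, where 0 is the mean of the other non-migratory and 1 that of the other migratory birds; shape gives the day of collection. N1 lies at 1.08, M2 and M3 of 3 October at 0.92 and 0.77, and the other 6 birds between 0.43 and 0.59.

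The birds were also placed on the genes with no overlap among the other 8. Of the 860 genes that were apart without non-migratory replicate 1, this bird lay in or past the migratory range in 672 (78.1%), between the groups in 65 (7.56%) and on the non-migratory side in 123 (14.3%). Of the 409 genes (3.49%) that were apart without migratory replicate 1, that bird lay on the non-migratory side in 221 (54%), between the groups in 51 (12.5%) and on the migratory side in 137 (33.5%). Migratory replicates 2 to 5 lay on the non-migratory side in 31.6%, 33.1%, 44.7% and 42.9% of their genes. The share of migratory replicate 1 (54%) was the highest among the migratory birds. Non-migratory replicates 2, 3 and 4 lay on the migratory side in 54.4%, 51% and 49.5%. Leaving out a migratory or a non-migratory bird leaves groups of unlike sizes. The shares of migratory and non-migratory birds therefore cannot be compared directly, and no share was tested. The share of a bird that belongs to neither status depends on these sizes and was not worked out. A large share on the side of the other status therefore does not by itself place a bird there.

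The ecotype label of these birds was checked in the same way, on genes called between inland and coastal birds (limma, adjusted p under 0.05, with terms for status and sex) with the bird left out. Non-migratory replicate 1 lay nearer to the inland mean in 488 of 745 genes (65.5%), migratory replicate 1 in 415 of 616 (67.4%), and the other 7 inland birds in 67.4% to 87.6%. All 9 lay on the inland side in most of these genes, the 2 birds of 7 August and non-migratory replicate 3 least often.

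Status and month of collection were then exchanged. Among the 9 inland birds, the 4 of October were compared with the 5 of August, which moves the August migratory bird to the other side. No gene passed (limma, smallest adjusted p = 0.28). An unadjusted p under 0.05 was found in 822 genes (7.01%), against 680 (5.8%) for status in the same birds. With 1 bird left out, the counts overlapped: they ran from 592 to 1071 for the month and from 492 to 1275 for status. With month added to the model of all birds, 429 genes (3.66%) had an unadjusted p under 0.05 for inland status and none passed (limma). With the day added there were 379 (3.23%) and none passed. Both shares are below the 5% of a test in which no gene differs. The differences were also less precise: the median SE was 0.162 log2 with the month and 0.17 with the day, against 0.115 without these terms. Among all birds, 2 were collected in the month of the other status. They were migratory inland replicate 1 and non-migratory coastal replicate 6, a female of 4 October. In the model of all birds, month is told from status only through these 2 birds. In the inland birds alone, status with the month held constant rests on migratory replicate 1 against the 4 non-migratory birds. With the day held constant it would rest on migratory replicate 1 against non-migratory replicate 1. The differences of the 4 named genes kept their sign with the month or the day added, between -0.73 and -0.71 log2 for ENSFALG00000005180, -0.46 and -0.37 for ENSFALG00000004697, 0.34 and 0.40 for ENSFALG00000004698, and 0.47 and 0.59 for ENSFALG00000007327. For the last, the 95% interval with the day added was -0.08 to 1.02 and so held 0. In the inland birds alone with the month added, ENSFALG00000004698 differed by 0.27 log2, with an interval from -0.14 to 0.68 that also held 0. The 4 genes were chosen with migratory replicate 1 included and had no overlap, so the sign in the inland birds alone was fixed in advance. With the hour of collection added, the same 1 gene passed (limma adjusted p = 0.048), and the unadjusted p was under 0.05 in 792.

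The status difference in inland birds was compared with that in coastal birds gene by gene. No gene passed the test of a difference between the ecotypes (limma, smallest adjusted p = 0.31). At an unadjusted p under 0.05 there were 1049 (8.95%). Without non-migratory inland replicate 1, 1 gene passed (limma adjusted p = 0.044). In the other direction, the 1282 genes (10.9%) with an unadjusted p under 0.05 for status among coastal birds, fitted without the inland ones, were taken, and for each inland bird its departures from the inland mean were averaged with the sign of the coastal difference. The averages were 0.005, -0.004, -0.050, 0.029 and 0.054 log2 in migratory inland replicates 1 to 5, and -0.028, 0.037, -0.065 and 0.022 in non-migratory replicates 1 to 4. The inland statuses overlapped on this measure, with means of 0.007 ± 0.039 (SD, n = 5) and -0.008 ± 0.047 log2 (SD, n = 4).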

How the data were processed

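Per the labels, libraries were made with a TruSeq RNA kit, which does not mark strand; the tools listed in the submitters' processing notes, with no role, are TopHat2, HTSeq and Trim Galore 0.3.1, and a genome build was not given in the sources used here. In the 1 table of 11727 genes deposited by the authors, the values are, per its name, TMM-normalized exon counts of protein-coding genes; the deposited values (20.38 to 35.98) were read as log2, a base that is not stated. Columns share nearly one distribution (99.3% of values occur in at least 10 cells), so depth is lost and no counting interval is given. None of the identifiers (0 of 11727) matched the RefSeq table, so planned gene and marker lists were not tested.

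limma 3.58.1 (R 4.3.3; trend and robust settings) fitted a mean per group and a sex term to all 19 birds, with no filter and no pseudocount. Inland birds are all male, so their differences equal those of plain means. P-values are two-sided, Benjamini-Hochberg adjusted over all genes, and called under 0.05. Named genes are the 2 smallest p-values in each direction. The procedure was tested on simulated data. The comparison, rules and lists were chosen with earlier results of these data known; the ecotype check, the average on coastal genes and some alternatives were added after the data were seen.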

Additional observations from a re-analysis of the deposited data

Results flagged for a closer look

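Of 26 checks of a group of birds on a named gene, a principal component or a summary of its departures, 1 found a bird far from the rest of its group; about 1 in 20 such checks does so by chance. On the third principal component, which held 12.6% of the variance, non-migratory inland replicate 2 lay at 24.4, with the other non-migratory inland birds at -6.4, -6.5 and -9.8. Migratory inland replicate 2 had the next highest value, 12.3. Non-migratory inland replicate 1, which stood apart on the first component (37.2, against -2.8 for the nearest bird of its group), did not pass this check.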

How the results depend on the processing

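The count of called genes was 1. It was also 1 with the hour added, with birds weighted by their fit, with the 25% of genes of lowest level left out and with median of ratios rescaling. It was 0 in the inland birds alone (also with month or hour added), in males only, without the 2 birds whose status differs from their month, with no sex term, with the month or the day added, and without the trend and robust settings. Leaving out 1 bird gave 0 to 10 calls with all birds and 0 to 13 in the inland birds alone, the highest each time without non-migratory replicate 1. Without both inland birds of 7 August there were 11 calls with all birds and 0 in the inland birds alone.

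The 738 genes at an unadjusted p under 0.05 became 429 with the month added (381 in the inland birds alone), 379 with the day added, 564 to 1244 leaving out 1 bird (492 to 1275 in the inland birds alone), and 1246 without both birds of 7 August (1264 in the inland birds alone). The 188 genes with no overlap became 275 to 860 leaving out 1 bird. They became 409 (3.49%) without the 2 birds whose status differs from their month and 1234 of 11727 without both birds of 7 August. Smaller groups lie apart in more genes when no gene differs, so these counts cannot be set directly against 188. This count cannot fall when birds are left out. With groups of the same sizes, it was 860 without non-migratory replicate 1, and 412, 384 and 372 without replicates 2, 3 and 4. The calls on the difference between ecotypes were 0 to 1 leaving out 1 inland bird, and those of October against August were 0 throughout. The cause of the changes in these counts was not tested.

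The 4 named genes kept their sign in all alternatives (32 or 33 each). They were chosen from these same birds, and their inland groups do not overlap. Leaving out inland birds therefore could not change the sign of a difference between plain means. The same holds for the inland birds alone with no added term, for males only and for no sex term. It also holds with birds weighted by their fit and without the trend and robust settings. In the inland birds alone with the month added, the difference is that of migratory replicate 1, which lies on the migratory side in all 4. In these alternatives the sign was fixed in advance. ENSFALG00000005180 stayed between -0.82 and -0.67 log2 and was called in 9 of 33; its adjusted p in limma ran from 0.0037 to 1. The 9 include the rescaling and the fit without the lowest genes, which could hardly change the call. The other named genes were never called. Pairs of different status lay 1.055 times as far apart as pairs of the same status by the SD and 1.042 times by 1 minus the correlation. Each bird's position on genes chosen without it moved by less than the spread of its group with a p under 0.01. No paired analysis was possible because the labels give no number that pairs birds across the statuses, and the only inland day with both statuses holds 1 bird of each; the day entered as a term instead. No pseudocount was varied, since the values were already logarithms.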

Other observations

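The number of genes in which a bird was the highest or the lowest of its group, or lay far from it, differed between the inland birds. Non-migratory inland replicate 1 was at the edge of its group in 7121 genes (60.7%), against 44%, 44.3% and 50.2% in the other non-migratory birds. It lay more than 1 log2 from the mean of the other birds of its group in 426 genes, 181 higher and 245 lower. In the other 8 inland birds this number was between 106 (migratory replicate 5) and 223 (non-migratory replicate 4). Migratory replicate 1 departed so in 204 genes, 76 higher and 128 lower, the most among the migratory birds. In the migratory birds of October the number was 106 to 148.

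The named genes ENSFALG00000004697 and ENSFALG00000004698 carry consecutive identifiers and had differences of opposite sign between the statuses (-0.43 and 0.39 log2). No source used here gives their positions, and the library kit does not mark strand. Whether reads are shared between them was not tested.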
